A study of Drosophila melanogaster with 2 samples.

Results

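A set of 10 heat shock and chaperone genes was followed in RNA from posterior midguts of Drosophila melanogaster: Hsp83, Hsp70Bb, Hsp68, DnaJ-1, stv, Hsp22, Hsp23, Hsp26, Hsp27 and Hsp67Bc. They were picked by name, with earlier results of these data known. Each was read from the transcript row of its locus with the highest mean count. The deposited table held 13822 loci, of which 11298 had a read. Of the 10, 9 stood in the table under their own name, and Hsp22 stood in a locus that the table names for Hsp67Bb and Hsp22 together. Of the 10, 9 passed the filter on low counts and Hsp67Bc did not.

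The first group of 3 libraries was Gli-RNAi. The female flies, 9 days old, carried the 5966GS-GAL4 driver and a UAS-Gli-RNAi transgene and were given RU486, a steroid that switches this GeneSwitch driver on in enterocytes, the absorptive cells of the gut. The second group of 3 libraries was the Control, flies of the same age, sex and transgenes that were given ethanol, so that the RNAi stayed uninduced. Both groups therefore carried the driver and the transgene, and the drug and the knockdown of gliotactin, a protein of tricellular junctions, cannot be told apart. RNA was extracted from pools, with midguts of 75 females per condition, and the labels call the 3 libraries of each condition biological replicates. The p-values rest on library-to-library spread, part of which may be technical.

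Heat shock proteins are chaperones, which bind unfolded proteins, hold them in solution and help them to fold. Small heat shock proteins hold unfolding proteins, Hsp70 and its J-domain partners refold them, Hsp90 matures signalling proteins, and BAG proteins release the bound protein from Hsp70 or pass it on for breakdown. Heat shock factor, a transcription factor, switches on many of these genes under stress, and in the fly gut chaperone genes are also studied in infection, ageing and epithelial damage.

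The deposited reads were counted per transcript, and the libraries held 8111031 to 14303722 reads in the Gli-RNAi group and 6821908 to 10914491 in the Control group with 1 transcript per locus. Normalised counts below are reads over each library's TMM-based size factor (mean 1), means carry the SD over 3 libraries, and log2 fold changes are Gli-RNAi minus Control with their SE. Genes were called at an adjusted p under 0.05 in edgeR's quasi-likelihood test over 8236 genes. Gli itself had a normalised count of 899 ± 19.1 in Gli-RNAi and 1962 ± 110 in Control libraries and fell by 1.13 ± 0.059 on the log2 scale. Some markers of other cells moved with the condition as well, where 27.6% of all genes tested rose and 26.8% fell. Of 7 progenitor markers 6 rose and 0 fell (0 at an unadjusted p under 0.05, and 0 with DESeq2 or limma-voom), with summed counts of 3820 to 4020.5 against 1365 to 1509. Of 5 tested markers of Malpighian tubule and hindgut 5 fell, with 142 to 157 for all 6 listed against 592 to 662, and of 3 tested fat body markers 3 fell, with 1219 to 1261 for all 6 against 3341 to 3577. Of 15 visceral muscle markers 5 rose, near the share of all genes tested, and 2 fell. Among 7 enterocyte markers 1 rose and 4 fell, with summed counts of 68965 to 72011 against 153265 to 160304. The enterocyte marker mag alone had 8291 ± 135 in Gli-RNAi and 69814 ± 1520 in Control libraries. Among 8 enteroendocrine markers 1 rose and 4 fell, with 5586 to 5873 against 7584 to 7616. All 12 germline and eggshell markers were below the filter, with summed counts of 13.3 to 16.3 against 29.0 to 43.4 and Cp16 at 0 in all 6 libraries. The part of these shifts in the chaperone values was not tested, and in whole tissue fewer cells of a type and less RNA per cell cannot be told apart.

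Of the 10 heat shock genes 9 were tested, and of these 8 rose in Gli-RNAi midguts and 0 fell. Of all genes tested 27.6% rose and 26.8% fell. The list was chosen with earlier results of these data known, so the count of 8 is not independent of them. None of the 9 tested heat shock genes fell at an unadjusted p under 0.05, and DESeq2 and limma-voom each also called 8 that rose and 0 that fell. In 9 of them every Gli-RNAi library lay above every Control library, a pattern held by 31.6% of all genes tested, and in 0 did every Gli-RNAi library lie below (28.8% of all genes tested). The sizes were uneven. Hsp70Bb, Hsp23 and Hsp68 rose at least 3-fold, Hsp83, Hsp26, DnaJ-1 and Hsp27 rose between 1.51-fold and 1.70-fold, and stv rose 1.15-fold. The counts of 8 and 9 include Hsp70Bb, which passed the filter on low counts through its Gli-RNAi libraries alone. Reads of the Hsp70Bb gene cannot be told apart from reads of the transgene, as described below. Hsp22 did not pass the test, and Hsp67Bc was close to the limit of detection. The 10 genes together took 0.116% ± 0.000684 of the reads in Gli-RNAi and 0.0652% ± 0.00252 in Control libraries (SD, n = 3). These shares are of plain library totals, without TMM scaling. The summed normalised counts were 10463.5 to 10656 in Gli-RNAi and 6625 to 6847.5 in Control libraries.

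**Figure D1:**
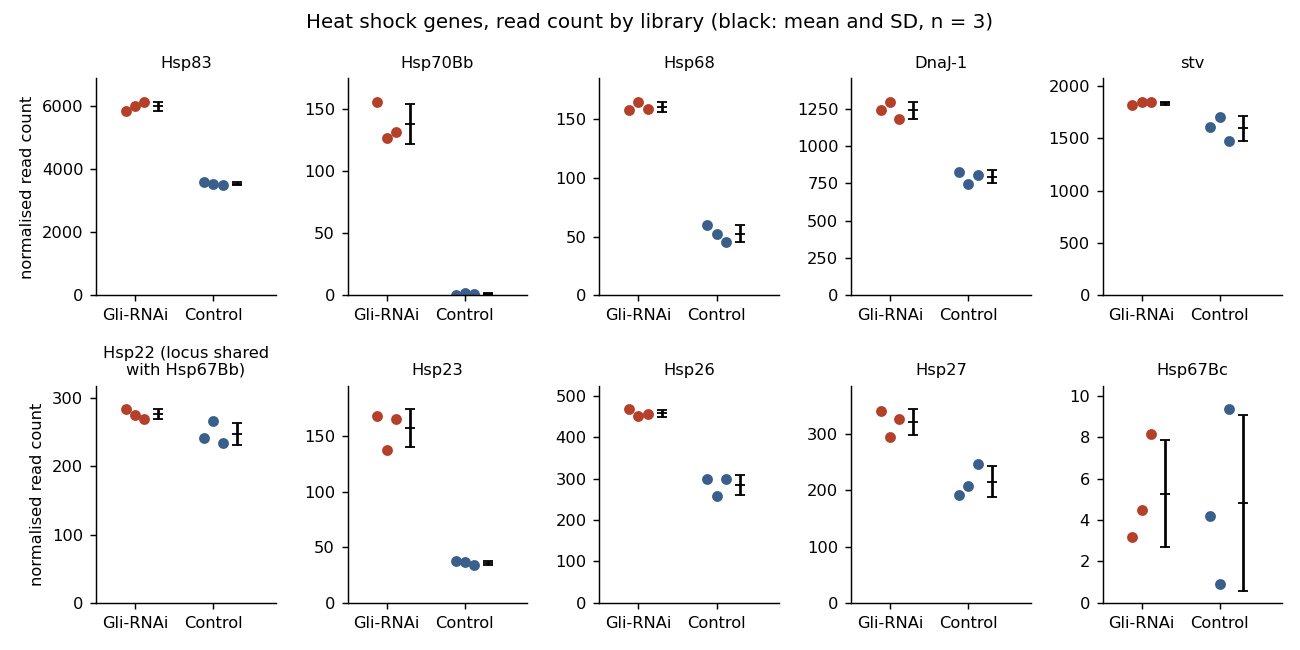
Normalised read count (y axis, each panel with its own scale from 0) of the 10 heat shock genes in the 3 Gli-RNAi and 3 Control libraries (points), with mean and SD beside them. In 9 panels the Gli-RNAi points lie above all Control points, and in the Hsp67Bc panel, where no count exceeds 10, they overlap.

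Hsp83 encodes the cytosolic Hsp90 of the fly, an abundant chaperone of kinases, receptors and other signalling proteins. Its normalised counts were 5832, 5995 and 6115 in Gli-RNAi libraries, against 3578, 3526 and 3477 in Control libraries. The groups were far apart, and within each group the libraries differed by little. Hsp83 rose by 0.76 ± 0.046 on the log2 scale, which is 1.70-fold (edgeR quasi-likelihood test, adjusted p = 5.6e-09). Of the normalised count of the 10 genes, Hsp83 alone held 55.7% to 57.4% in Gli-RNAi and 51.9% to 52.5% in Control libraries. On chromosome 3L its transcript spans 3193027 to 3197061 of the plus strand, in 2 exons. All coordinates are given as the deposited table has them, in a build that it does not name.

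Hsp70Bb is a copy of the stress-inducible Hsp70 gene, which is close to silent in unstressed fly tissue. It had 247, 113 and 145 reads in the 3 Gli-RNAi libraries, against 0, 2 and 1 reads in the Control libraries. The normalised counts were 156, 127 and 132 against 0, 1.87 and 1.56, so that the gene was near absent in every Control library and moderately read in every Gli-RNAi library. The ratio of scaled totals was 114, with an exact (Clopper-Pearson) 95% interval of 38.8 to 555 that covers counting error only. In edgeR's test over all genes the adjusted p was 7.0e-10, with a fitted log2 fold change of 6.69 ± 0.331 that depends on the prior count. Over fits that left out 1 library it ran from 6.23 without Control replicate 1, which has 0 reads, to 7.32 without Control replicate 2, which has 2. Only 0.121% of the genes tested had a higher log2 fold change. Hsp70Bb passed the filter on low counts through its Gli-RNAi libraries alone.

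The fly genome holds several near-identical Hsp70 genes, so reads may be shared or dropped between copies, and the count of one copy is uncertain. The 5 other copies in the table were all below the filter. They had 24, 10 and 9 reads together in Gli-RNAi libraries and 1, 10 and 1 in Control libraries, which is 43 against 12 reads and a ratio of scaled totals of 2.43 (exact 95% interval 1.26 to 5.06). The intervals of Hsp70Bb and of the other copies do not overlap, but both cover counting error only and leave out library-to-library spread. Control replicate 2 alone gave 10 of the 12 Control reads of the other copies. Whether the copies differed in their change was not tested. Hsp70Bbb, with a transcript of the same length, 2591 bases, and only 692 bases upstream of Hsp70Bb, had 0 reads in all 3 Gli-RNAi libraries and 1 in the Control libraries. Hsp70Bc, 692 bases downstream of Hsp70Bb, had 14, 6 and 5 reads in Gli-RNAi and 1, 5 and 1 in Control libraries.

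Hsp70Bb thus held 92.2% of all Hsp70 reads in the Gli-RNAi libraries. With the reads of all 6 copies summed, the libraries had 271, 123 and 154 reads against 1, 12 and 2, a ratio of scaled totals of 24.8 (exact 95% interval 14.9 to 44.5) and a log2 fold change of 4.59 ± 0.293 (edgeR, adjusted p = 1.1e-08). The Hsp70Bb transcript is 1 exon on the plus strand of chromosome 3R, from 8331515 to 8334105, and the deposited table does not say which of its bases the reads cover. Transgenes of the GAL4/UAS system are commonly built with a core promoter taken from an Hsp70 gene, and such a transgene is transcribed when RU486 is given. Reads from the transgene and reads from the Hsp70Bb gene cannot be told apart here.

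**Figure D2:**
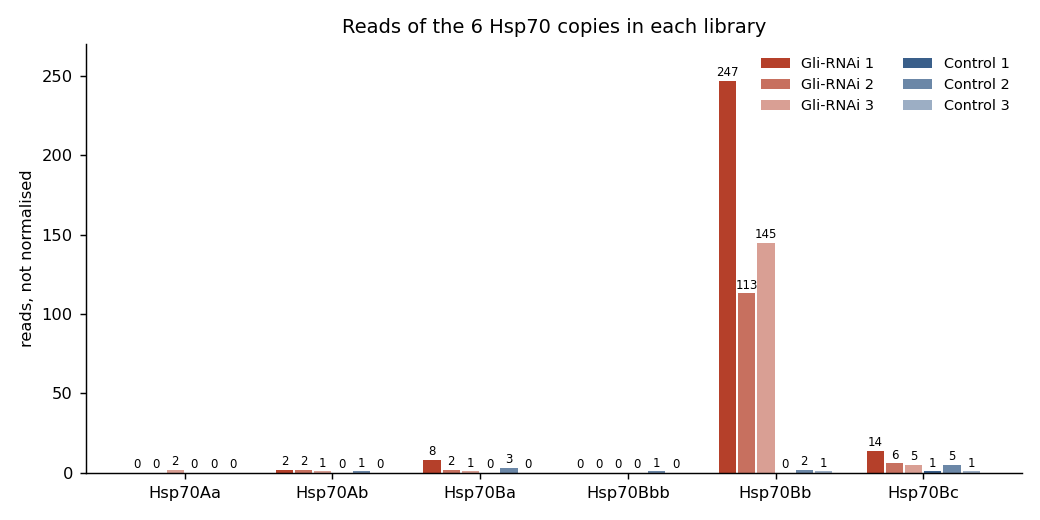
Reads, not normalised (y axis), of each of the 6 Hsp70 copies in the 3 Gli-RNAi libraries (red) and the 3 Control libraries (blue), with the read number above each bar. Hsp70Bb has 113 to 247 reads in Gli-RNAi and 0 to 2 in Control libraries, and no other copy has more than 14 in any library.

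Hsp68 encodes a further stress-inducible member of the Hsp70 family, outside the group of near-identical copies. Its normalised counts were 157, 165 and 159 in Gli-RNAi libraries, against 60.2, 52.4 and 45.2 in Control libraries. All Gli-RNAi libraries were more than double any Control library. The log2 fold change was 1.60 ± 0.123, which is 3.02-fold (edgeR, adjusted p = 7.8e-08). Relative to Hsp83, Hsp68 stood at 0.0260 to 0.0275 in Gli-RNAi libraries and at 0.0130 to 0.0168 in Control libraries, without overlap. The transcript is 1 exon on the minus strand of chromosome 3R, from 19880802 to 19883029, and overlaps CG6000 on the other strand by 21 bases, where reads of the pair cannot be assigned without strand.

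DnaJ-1 encodes an Hsp40, a J-domain protein that hands unfolded proteins to Hsp70. Its normalised counts were 1237, 1296 and 1183 in Gli-RNAi libraries, against 827, 745 and 809 in Control libraries. It rose by 0.64 ± 0.065 on the log2 scale, which is 1.56-fold (edgeR, adjusted p = 1.2e-06). Its ratio to Hsp83 overlapped between the groups, at 0.193 to 0.216 in Gli-RNAi and 0.211 to 0.233 in Control libraries. The transcript counted is 1 exon on the minus strand of 3L, from 5743122 to 5745330.

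The smallest change that passed the test was that of stv (starvin), which encodes a BAG-domain protein that works with Hsp70 and small heat shock proteins in the disposal of damaged proteins. Its normalised counts were 1817, 1842 and 1841 in Gli-RNAi libraries, against 1608, 1702 and 1470 in Control libraries. The Gli-RNAi libraries lay close together and the Control libraries were spread more widely below them. The log2 fold change was 0.20 ± 0.060 (edgeR, adjusted p = 0.0119), and the adjusted p lay between 3.4e-04 and 0.0472 over the alternatives. Relative to Hsp83, stv stood at 0.301 to 0.312 in Gli-RNAi libraries and at 0.423 to 0.483 in Control libraries, and every Gli-RNAi ratio lay below every Control ratio. With 3 libraries per condition an exact permutation test of such a ratio cannot give a two-sided p below 0.1, so the ratios are given as values only.

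The table holds several stv transcripts with an upstream or a downstream start, on the plus strand of 3L up to 13476621. The row counted starts at 13470653 and is 3351 bases long, and a row that starts at 13473548 is 2576 bases long. In the release 6 annotation the corresponding transcripts differ only in exon 1, of 942 or 155 bases. Subtracting the reads of the downstream-start row left 363, 221 and 260 reads in Gli-RNAi libraries and 105, 210 and 72 in Control libraries. Normalised, this difference was 238 ± 9.29 in Gli-RNAi and 152 ± 42.4 in Control libraries, and it held 12.6% to 13.5% of the reads of the upstream-start row in Gli-RNAi against 7.64% to 11.6% in Control libraries. It mixes the reads of the upstream exon 1 with those, taken off, of the downstream exon 1.

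Fitted in place of stv, the difference had a log2 fold change of 0.59 ± 0.139 (edgeR, adjusted p = 0.00267), and the downstream-start row one of 0.14 ± 0.056 (edgeR, adjusted p = 0.0431). These 2 fits were chosen after the values were seen. The difference between the 2 fold changes was not tested. In the authors' deposited table the adjusted p was 0.038 for the upstream-start row and 0.173 for the downstream-start row.

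**Figure D3:**
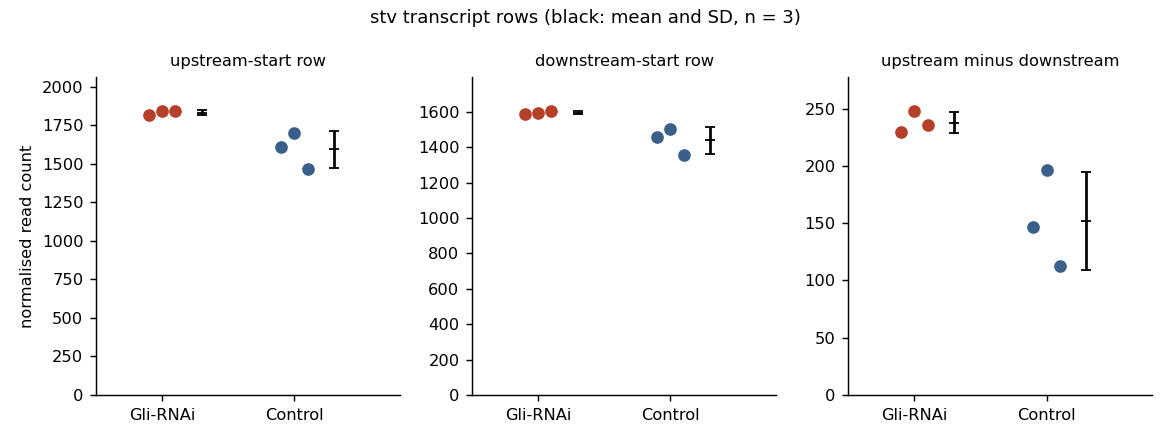
Normalised read count (y axis, from 0) of the upstream-start stv row, the downstream-start row and their difference in the 3 Gli-RNAi and 3 Control libraries (points), with mean and SD. The Gli-RNAi points lie above the Control points in all 3 panels, and the difference averages 238 against 152.

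The small heat shock genes among the 10 lie side by side on chromosome 3L. Within 13774 bases, from 9364611 to 9378384, the table places 7 loci and no other gene. In order these are Hsp67Bc, the Hsp67Bb and Hsp22 locus, CG4461, Hsp26, Hsp67Ba, Hsp23 and Hsp27. Neighbours in this cluster differed in level and in change. Hsp23 rose 4.38-fold, Hsp26 and Hsp27 rose 1.62-fold and 1.51-fold, Hsp22 did not pass the test, and Hsp67Bc, CG4461 and Hsp67Ba were hardly read in either condition.

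Hsp23, a cytosolic small heat shock protein gene, had normalised counts of 169, 138 and 166 in Gli-RNAi libraries, against 37.8, 36.5 and 34.3 in Control libraries. The lowest Gli-RNAi library stood well clear of the highest Control library. The log2 fold change was 2.13 ± 0.144 (edgeR, adjusted p = 1.9e-08), and 1.29% of the genes tested had a higher one. Hsp27, whose protein is found in the nucleus, is its nearest neighbour in the cluster. Hsp27 had 340.1, 295 and 327 in Gli-RNAi libraries, against 192, 208 and 246 in Control libraries, and a log2 fold change of 0.59 ± 0.096 (edgeR, adjusted p = 1.2e-04). The ratio of Hsp23 to Hsp27 was 0.468 to 0.507 in Gli-RNAi and 0.139 to 0.197 in Control libraries, without overlap.

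Hsp26, a cytosolic small heat shock protein gene on the minus strand, had normalised counts of 468, 452 and 455 in Gli-RNAi libraries, against 298, 258 and 299 in Control libraries. It rose by 0.70 ± 0.078 on the log2 scale (edgeR, adjusted p = 3.4e-06). Its ratio to Hsp27 overlapped between the groups, at 1.38 to 1.53 in Gli-RNAi and 1.22 to 1.55 in Control libraries. The ratio of Hsp23 to Hsp26 was 0.305 to 0.365 in Gli-RNAi and 0.115 to 0.142 in Control libraries and did not overlap.

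Hsp22 encodes a small heat shock protein of the mitochondrial matrix. Its locus had normalised counts of 284, 276 and 269 in Gli-RNAi libraries, against 242, 266 and 234 in Control libraries. The groups did not overlap, but they were separated by little, and the log2 fold change of 0.15 ± 0.080 did not pass (edgeR, adjusted p = 0.126). With library totals as scaling Hsp22 passed, at 0.34 and an adjusted p = 0.00363, a setting that also moved the median of all genes up by 0.19. The locus also holds Hsp67Bb, and a single-exon row from 9367118 to 9368064 belongs to Hsp22 in RefSeq. That row held 1588 of the 1599 reads of the shared row over the 6 libraries, and a row of Hsp67Bb alone held 9. Fitted alone, a choice made after the values were seen, the Hsp22 row had a log2 fold change of 0.16 ± 0.080 (edgeR, adjusted p = 0.111).

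Hsp67Bc, whose protein binds the BAG protein of stv, had 5, 4 and 9 reads in Gli-RNAi libraries and 3, 1 and 6 in Control libraries. The ratio of scaled totals was 1.22 with an exact 95% interval of 0.534 to 2.96, so a change of either direction was not detectable at this depth. Of the other loci of the cluster, CG4461 had 8 reads in Gli-RNAi and 7 in Control libraries and Hsp67Ba 7 in each group.

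**Figure D4:**
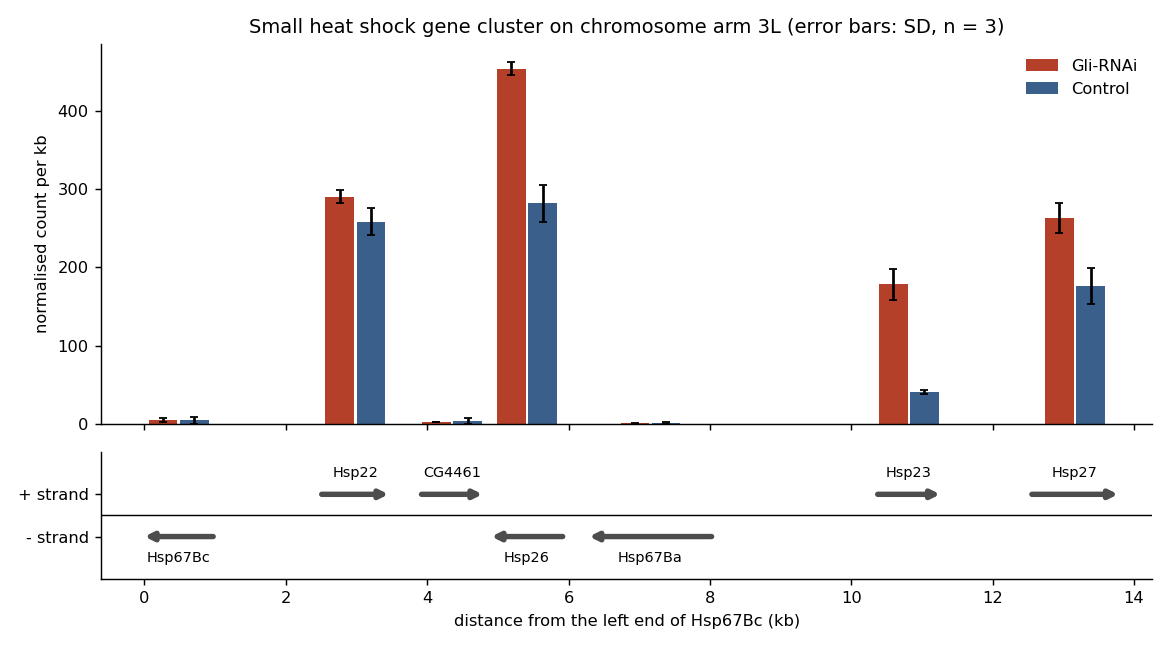
Upper panel, normalised read count per kilobase of transcript (y axis, mean with SD over 3 libraries) of the 7 loci of the small heat shock cluster on 3L in Gli-RNAi (red, left) and Control (blue, right) libraries, placed by position. Lower panel, the loci on their strands by distance in kb, with Hsp22 drawn from its own row. By mean, Hsp26 is highest in both groups, but its Control libraries overlap those of Hsp22. Hsp23 differs most as a fold (4.38-fold), and Hsp67Bc, CG4461 and Hsp67Ba stay near 0.

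Per kilobase of transcript, with Hsp22 taken from its own row, the level of the 10 genes ran over a wide range. In Gli-RNAi midguts Hsp83 led with a normalised count per kilobase of 2059.5 ± 48.9, followed by DnaJ-1 at 561 ± 25.6 and stv at 547 ± 4.24, whose libraries overlapped. Then came Hsp26 at 454 ± 8.30, Hsp22 at 290.35 ± 7.90, Hsp27 at 263 ± 19.1, Hsp23 at 178 ± 19.3, Hsp68 at 72.0 ± 1.77, Hsp70Bb at 53.3 ± 6.09 and Hsp67Bc at 5.42 ± 2.66. In Control midguts Hsp83 led at 1214 ± 17.3 per kilobase, and stv at 476 ± 34.9 stood above DnaJ-1 at 359 ± 19.4 without overlap. Hsp26 at 282 ± 23.5 and Hsp22 at 259 ± 17.6 overlapped there. They were followed by Hsp27 at 176 ± 22.9, Hsp23 at 41.0 ± 2.01, Hsp68 at 23.6 ± 3.36, Hsp67Bc at 4.96 ± 4.36 and Hsp70Bb at 0.441 ± 0.387. DnaJ-1 stood at the level of stv in Gli-RNAi and below it in Control midguts, and Hsp70Bb stood above Hsp67Bc in Gli-RNAi and below it in Control midguts.

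The rest of the chaperone machinery, in lists chosen with earlier results of these data known, did not all move this way. Counts are over genes tested, and of all genes tested 27.6% rose and 26.8% fell, with a median log2 fold change of 0.03. Of 6 other small heat shock genes (median -0.28 over those tested) 4 were below the filter, among them CG7409 and CG13133 with 0 reads in all libraries. Of the other 2, l(2)efl fell and CG14207, which the table names HspB8, did not pass. The count of l(2)efl was 568 ± 14.7 in Gli-RNAi and 772 ± 76.5 in Control libraries, a log2 fold change of -0.43 ± 0.076 (edgeR, adjusted p = 2.6e-04), opposite in sign to the small heat shock genes of the cluster that passed. CG14207 had 323 ± 24.1 in Gli-RNAi and 357 ± 28.4 in Control libraries (edgeR, adjusted p = 0.206). No other small heat shock gene rose, also at an unadjusted p under 0.05 and with DESeq2 and limma-voom (0 each).

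With TMM scaling no rise was called among the few listed regulators of these genes. Hsf, which encodes heat shock factor, had a count of 474 ± 6.48 in Gli-RNAi and 456 ± 23.6 in Control libraries (log2 fold change 0.05, edgeR adjusted p = 0.556, or a rise at adjusted p = 0.0124 with library totals as scaling). Of 4 regulators tested (median -0.15) 0 rose and 2 fell, where 27.6% of all genes tested rose and 26.8% fell. At an unadjusted p under 0.05 and with DESeq2 or limma-voom 0 also rose. Whether 0 of 4 differs from the share of all genes was not tested. The transcription factor gene foxo fell to 847 ± 21.2 in Gli-RNAi libraries, against 1409 ± 96.5 in Control libraries. The heat-inducible noncoding RNA lncRNA:Hsromega had 1074 ± 9.99 and 1263 ± 65.9, a log2 fold change of -0.23 ± 0.059, a call lost with library totals as scaling (adjusted p = 0.546). Sirt1 (-0.07) did not pass.

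Several partner genes of Hsp70 and Hsp90 moved up with the heat shock genes. Among 15 tested co-chaperones 9 rose and 1, HIP-R, fell (median log2 fold change 0.22), or 7 rose with DESeq2. Hop, which links Hsp70 to Hsp90, had a count of 1206 ± 70.6 in Gli-RNAi and 772 ± 28.3 in Control libraries. HSPBP1, a nucleotide exchange factor of Hsp70, rose by 0.63 ± 0.113, CG1416, annotated as an Hsp90 activator of the Aha1 type, by 0.43 ± 0.085, and the locus shared by Cdc37, a kinase-loading partner of Hsp90, and CG12020 by 0.43 ± 0.068. The Hsp90 partner gene p23 (-0.07) and the ubiquitin ligase gene STUB1 (0.19, adjusted p = 0.0546) did not pass.

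Of 8 tested J-domain genes 5 rose and 1, CG2790, fell (median 0.25), and with DESeq2 4 rose and 0 fell. Tpr2 rose by 0.14 (edgeR, adjusted p = 0.0311), a call lost with DESeq2 (adjusted p = 0.133) and with the replicate block in edgeR (adjusted p = 0.0728). The largest rise in this list was that of mrj, with a count of 1359 ± 49.2 in Gli-RNAi and 698 ± 23.2 in Control libraries, a log2 fold change of 0.96 ± 0.061. DnaJ-H, Csp and Droj2 rose by 0.48 ± 0.066, 0.47 ± 0.047 and 0.33 ± 0.052, and CG3061 (0.15) and CG5001 (0.17) did not pass. Hsc70Cb, the Hsp110 of the fly and an exchange factor of Hsp70, rose by 0.61 ± 0.056. Hsc70-4, the main constitutive Hsp70, was the most abundant chaperone gene described here, with a count of 25115 ± 782 in Gli-RNAi and 26217 ± 540 in Control libraries, and did not pass (log2 fold change -0.06, edgeR adjusted p = 0.274, or 0.13 and adjusted p = 0.0176 with library totals as scaling). Hsc70-2 (0.16) did not pass either. Of these 3 tested genes (median 0.16) 1 rose and 0 fell, with 0 falling also at an unadjusted p under 0.05, with DESeq2 and with limma-voom. Hsc70-1 was below the filter, and without a filter it fell (adjusted p = 0.0157).

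All 8 subunits of the cytosolic chaperonin TRiC, which folds actin and tubulin, rose, with log2 fold changes between 0.36 and 0.65 and a median of 0.47, and 0 fell in edgeR at an unadjusted p under 0.05, DESeq2 or limma-voom. Tcp-1eta had a count of 2004 ± 45.5 in Gli-RNAi and 1276 ± 65.5 in Control libraries, Cctgamma 1926 ± 69.7 and 1239 ± 27.8, Tcp-1zeta 1684 ± 107 and 1180 ± 32.5, and T-cp1 1837 ± 48.9 and 1324 ± 51.9. Mitochondrial chaperones differed from this. Of 7 tested 0 rose and 1 fell (median 0.04), with 1 that rose at an unadjusted p under 0.05 and 0 with DESeq2 or limma-voom, but 4 rose with library totals as scaling. Trap1, the mitochondrial Hsp90, had 619 ± 2.58 in Gli-RNAi and 768 ± 25.8 in Control libraries, a log2 fold change of -0.31 ± 0.061, which did not pass with library totals (adjusted p = 0.113). Hsp60 (0.04) and Hsc70-5 (0.05) did not pass.

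**Figure D5:**
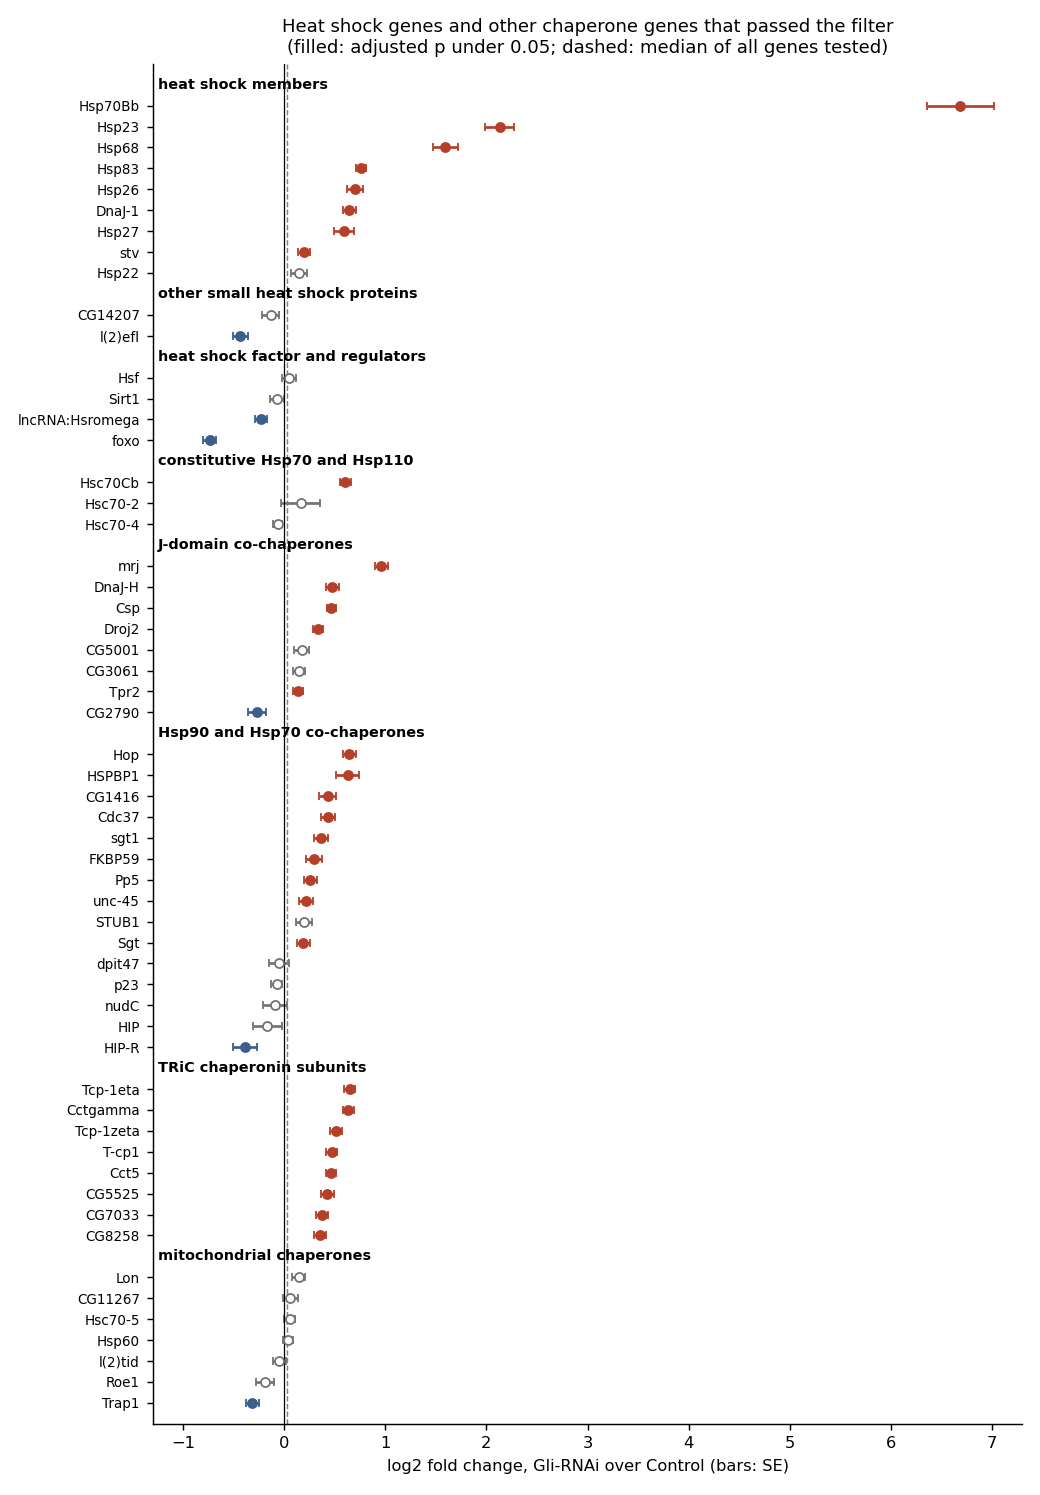
Log2 fold change, Gli-RNAi over Control, with SE (x axis) of the heat shock genes and of the other chaperone genes that passed the filter (rows), by list, filled where the adjusted p was under 0.05. Hsp70Bb stands far to the right at 6.69, the 8 TRiC subunits lie between 0.36 and 0.65, and most mitochondrial chaperones lie around 0.

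Among 5 genes whose products take part with stv in clearing damaged proteins (median 0.19) 3 rose and 0 fell (0 falling also at an unadjusted p under 0.05 and with DESeq2 and limma-voom). The filamin gene cher rose to 674 ± 53.2 in Gli-RNAi libraries, against 276 ± 39.7 in Control libraries, and ref(2)P, the gene of an autophagy receptor, to 9135 ± 291 against 5891 ± 120. Atg8a (0.12, adjusted p = 0.0408) was not past the threshold in 10 alternatives, DESeq2 (adjusted p = 0.184) among them. Among 7 other stress-induced genes tested (median -0.90) 2 rose, near the 27.6% of all genes tested that rose, and 5 fell (26.8% of all genes tested). The metallothionein genes MtnA, MtnC and MtnB fell, with counts of 8950 ± 419, 1996 ± 240.0 and 140.0 ± 22.2 in Gli-RNAi libraries, against 31333 ± 2196, 6426 ± 251 and 374 ± 10.8 in Control libraries. The metallothionein gene MtnD went the other way, with 442 ± 75.2 in Gli-RNAi and 348 ± 24.7 in Control libraries, a log2 fold change of 0.35 ± 0.111 (edgeR, adjusted p = 0.0155). That call was lost without Gli-RNAi replicate 1 (adjusted p = 0.114), without Gli-RNAi replicate 3 (0.0641) and without Control replicate 1 (0.0611). The transcription factor gene Ets21C, a JNK target, rose to 251 ± 30.5 against 105 ± 14.6. The stress genes TotA, TotC, TotM, TotX and TotZ were below the filter.

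The genes whose pattern over the 6 libraries was most like that of Hsp83 were CG31087, ALiX and the locus shared by Adgf-A and Msi. Their Euclidean distances from it were 0.0695, 0.0698 and 0.0741 over 8236 genes, measured on log2 CPM (reads scaled to library size) centred on each gene's Control mean. Their log2 fold changes were 0.78, 0.75 and 0.79. That these are close to that of Hsp83 follows from how the genes were chosen. For Hsp70Bb the nearest genes were CG31077, CG7567 and CG34220, at larger distances of 0.838, 1.42 and 1.63. CG31077 had a normalised count of 98.0 ± 8.35 in Gli-RNAi libraries and 0 reads in the Control libraries, so it too was near absent without induction. It passed the filter through its Gli-RNAi libraries alone. Its fitted log2 fold change of 9.60, against 6.69 for Hsp70Bb, depends on the prior count.

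The authors' deposited gene table of differential expression has 3049 genes, beside 13822 loci in the transcript table. It holds 8 of the 10 heat shock genes, without Hsp22 and Hsp67Bc. It rests on the same reads and is not separate support for the rises. The description deposited with the tables defines a log2 fold change as control over treatment, but for these 8 genes the signs fit the read counts as Gli-RNAi over Control, and they are given in that direction. The table's mean log2 fold changes for these 8 are all positive, from 0.185 for stv to 6.89 for Hsp70Bb, with Hsp23 at 2.10 and Hsp83 at 0.742.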

How the data were processed

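Poly(A) RNA of posterior midguts was sequenced in 3 libraries per condition. Per the file headers, the deposited values are raw read counts per transcript and condition, with transcript lengths and the authors' adjusted p-values. The authors' deposited gene table gives mean log2 fold changes, which are read here as Gli-RNAi over Control: the deposited description defines a log2 fold change as control over treatment, but for the members the signs fit the read counts the other way round. DESeq is named among the tools, per the submitters' processing notes. The aligner, the strand setting and the genome build were not given in the sources used here. The column headers number the libraries 1 to 3 within each condition.

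One transcript row, that with the highest mean, stood for each locus. Counts were tested with edgeR 4.0.16 in R 4.3.3 (TMM scaling, default filter, quasi-likelihood F test, Benjamini-Hochberg adjustment over 8236 genes), and the SE is the absolute log2 fold change over the square root of F. DESeq2 1.42.0 and limma 3.58.1 (voom) were alternatives. The procedure was tested on simulated data. The members and lists were chosen with earlier results of these data known. The text names the 10 members, from each list at most 4 genes past the threshold with the largest change and at most 2 others with the highest mean, the 3 genes nearest to Hsp83 and to Hsp70Bb, and, outside this rule, the other Hsp70 copies, CG4461, Hsp67Ba, CG7409, CG13133, CG2790, HIP-R, Hsc70-1, MtnD, the Tot genes and CG6000. Tpr2 and the enterocyte marker mag were also named outside this rule. Of the listed genes, Trl and DnaJ60 did not match a locus.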

Additional observations from a re-analysis of the deposited data

How the results depend on the processing

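The 8 members that rose and the absence of members that fell held in every alternative run, with the same calls for each of the 8. Hsp70Bb ranged from 4.59 with the copies summed to 7.32 without Control replicate 2. With library sizes taken as plain totals, 3737 genes rose and 1512 fell, against 2272 and 2204 with TMM (71.2% against 50.8% of calls rising), Hsp22 passed at 0.34, 1 regulator rose and 1 fell, 2 constitutive Hsp70 and Hsp110 genes rose, 4 mitochondrial chaperones rose and 0 fell, and 0 J-domain genes and 0 co-chaperones fell. In the constitutive list 1 gene fell without a filter and with sums over transcripts, and 0 J-domain genes fell with the DESeq2 Wald test. Leaving out 1 library gave 0 to 1 constitutive genes that fell, 0 to 1 J-domain genes, 0 to 2 co-chaperones and 1 to 2 mitochondrial chaperones, and 1 to 2 other stress-induced genes that rose. The members' share of reads was 0.103% in Gli-RNAi and 0.0705% in Control libraries with sums over transcripts and 0.123% in Gli-RNAi with the lowest transcript row, which for the Hsp22 locus held too few reads to test. By the column headers same-numbered libraries share only a number. Their deviations correlated at -0.158, 0.0473 and -0.0944 over 6838 genes, and those of other pairs between -0.107 and 0.190. The deviations were centred within the 3 libraries of each condition, so these values cannot exclude a pairing or a shared batch. The fit with the replicate block called 2168 genes that rose, 2113 that fell, 8 members that rose and 0 that fell. Depth limits Hsp67Bc and the Hsp70 copies other than Hsp70Bb.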
